A study of Rattus norvegicus with 12 samples.

Results

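Livers of newborn rats whose dams ate a low protein diet, with or without extra folate, were compared with livers of control pups. The members are all 12 samples of the series, namely 8 low protein livers (4 MLP and 4 MLP-F) set against 4 control livers (C), and each was hybridised to an Illumina RatRef-12 Expression BeadChip, a 1-colour array on which beads carry gene probes. MLP pups came from a dam on the low protein diet, MLP-F pups from a dam on the low protein diet supplemented with folate, and C pups from a dam on the control diet. All pups were male Wistar rats culled 1 day after birth, and all dams were fed semi-synthetic diets through pregnancy. Per the study's methods each diet was represented by 1 litter, so the 4 pups of a group are littermates and diet and litter cannot be told apart. No control group with folate supplementation was included, so the effect of folate without protein restriction was not measured. The contrast takes the mean of the MLP and MLP-F group means and subtracts the C mean. It was set up to look for differences from C that stay when the low protein diet also holds more folate. As a contrast of means it does not require that MLP-F alone differ from C, so each diet's own difference is needed beside it.

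As background, the liver of a newborn rat leaves a state of cell growth and blood cell formation and takes over the fasting and fat-burning work of life after birth. Protein restriction in pregnancy is a much used rat model of growth restriction, and folate feeds the methyl groups and the thymidine on which DNA methylation and DNA synthesis depend. Glucocorticoids, insulin-like growth factors and fatty acid receptors are among the signals that time the maturation of hepatocytes.

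Levels and differences are given on a re-expanded log2 scale. The deposited values lay between 4.00 and 4.63 and were read as log2 of 16 plus a value that was already a log2 value, an inference from the numbers themselves. A probe is called when its adjusted p from limma is under 0.05 over the 15753 probes kept by their mean level. In the contrast of both low protein diets with C, 83 probes were called (0.527% of the kept probes), 43 higher (0.273%) and 40 lower (0.254%) in the low protein livers. At an adjusted p under 0.01 there were 8, of which 3 were higher and 5 lower, and 2449 probes (15.5%) had an unadjusted p under 0.05. The called probes stood for 68 genes, and 15 had no gene symbol. Their differences had a median size of 0.51 and a range of 0.20 to 1.53, and 7 exceeded 1 in size. In 50 of the 83 no low protein liver reached into the range of the C livers, with 25 above it and 25 below it, while 1.29% of all kept probes had such a separation. The 83 were chosen by their p on the same values, so this separation is not independent of the call. Part of the genes described below were chosen for it, and their lack of overlap is not a further result. The median difference over all kept probes was 0.0049.

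Some livers stood apart from their groups, and every result below rests in part on them. C replicate 4 held skeletal muscle transcripts (median of 8 markers 4.89, against 0.19 to 0.32 in the low protein livers and at most 0.30 in the other C livers) and lung transcripts (median of 4 markers 2.83, against at most 0.23 elsewhere). C replicate 1 held squamous keratins (median of 3 markers 3.49, against at most 0.22 elsewhere) and had the highest median of the stellate cell and fibroblast markers, at 4.30, against 1.09 to 1.86 in the low protein livers. Its smooth muscle markers were also high (median of 4 markers 3.14, against 0.35 to 1.11 in the low protein livers). C replicate 4 was raised in both lists as well, at 2.31 for stellate cells and fibroblasts and 1.66 for smooth muscle. The liver nearest to MLP-F replicate 2 by correlation over probes was C replicate 2 (r = 0.993), and MLP-F replicate 2 lay nearer to the C mean than the mean of the other 3 MLP-F livers in 27 of the 83 called probes. Replicate 4 of MLP-F did so in 23, replicate 1 in 8 and replicate 3 in 3. Hepatocyte markers had medians of 7.84 to 8.20 in the low protein livers and 7.91 to 8.12 in C livers. None of the 13 marker lists of cell types and neighbouring tissues had a called probe in the contrast. Where single C livers stood apart, the spread within C was wide. The muscle markers Acta1 and Actg2 each differed by -2.07 (SE 1.04 and 0.98, adjusted p = 0.377 and 0.344). The lack of calls therefore does not show that the groups were alike in composition. The part of foreign tissue in the differences below was not tested beyond fits without those livers.

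**Figure D1:**
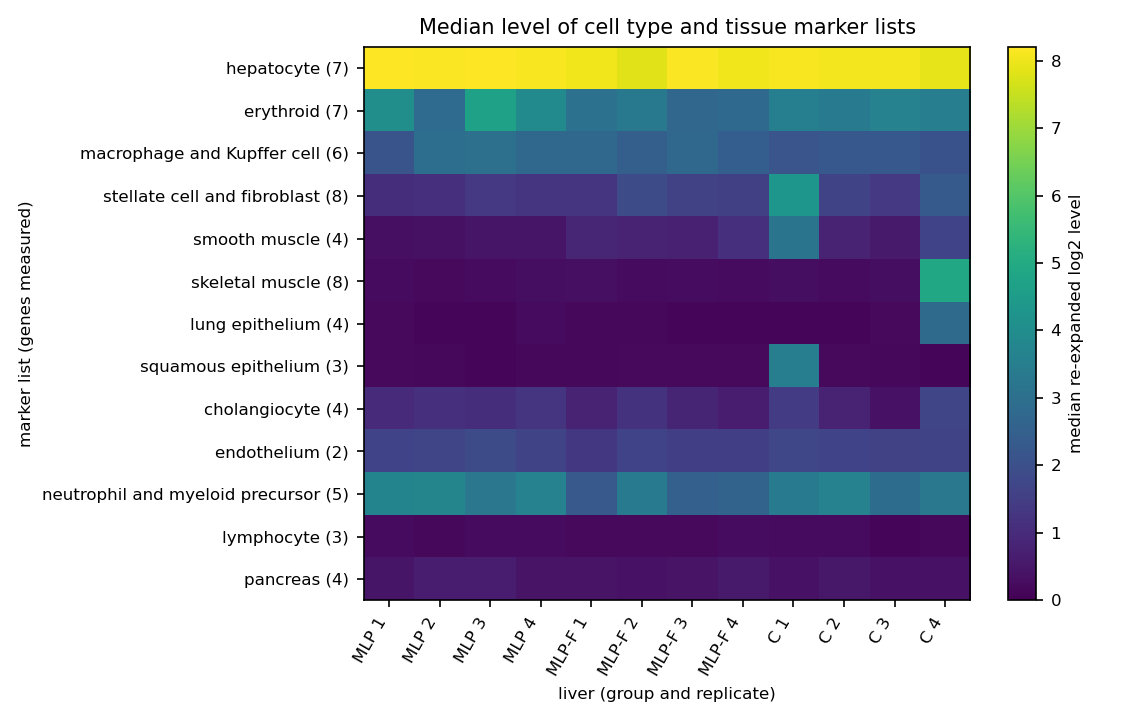
Median re-expanded log2 level (colour) of the measured genes of each marker list (rows, with the number of genes) in each of the 12 livers (columns). Hepatocyte markers are near 8 in every liver, while skeletal muscle and lung markers stand out in C 4 (4.89 and 2.83) and squamous keratins in C 1 (3.49).

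Genes of DNA replication were among those that fell in the low protein livers. Of 42 kept probes for the licensing of origins and the replication fork, 5 were called lower and 0 higher (11.9%, against 0.254% called lower among all kept probes), for Orc6, Pcna, Pola2, Pole and Rrm2. The median difference of the 42 probes was -0.29, with -0.49 in MLP and -0.079 in MLP-F against the same C livers. The study itself singled out replication genes from these animals, so the list is not independent evidence of its direction. Rrm2, the small subunit of the ribonucleotide reductase that makes deoxynucleotides, had levels of 2.91, 2.64, 2.74 and 2.77 in MLP livers and 3.35, 3.56, 2.94 and 3.47 in MLP-F livers, against 3.95, 3.70, 3.95 and 4.16 in C livers. All 8 low protein livers lay below all 4 C livers, and Rrm2 fell by 0.89 (SE 0.11, adjusted p = 0.0117). The fall was uneven, since the difference from C was -1.17 in MLP and -0.60 in MLP-F, and MLP minus MLP-F was -0.57 (95% interval -0.86 to -0.28, adjusted p = 0.0267). Pcna, which encircles DNA and holds the polymerases on it, had 4.94, 4.68, 4.60 and 4.97 in MLP livers and 5.52, 5.66, 5.02 and 5.94 in MLP-F livers, against 6.17, 5.72, 6.15 and 6.19 in C livers. It fell by 0.89 (SE 0.15, adjusted p = 0.0386), though MLP-F replicate 4 lay above C replicate 2. Orc6, a subunit of the origin recognition complex, had 1.97, 1.38, 1.59 and 1.68 in MLP livers and 1.91, 2.22, 1.84 and 2.22 in MLP-F livers, against 2.50, 2.35, 2.48 and 2.47 in C livers. Every low protein value of Orc6 was below every C value, and expression fell by 0.60 (SE 0.11, adjusted p = 0.0386). For Orc6 the difference between MLP and MLP-F was not called, at -0.39 (95% interval -0.66 to -0.13, adjusted p = 0.0844), an interval that stays below 0.

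Other genes of the S phase were called beside them. Ccne2, the cyclin E2 that drives cells from G1 into S phase, had 0.49, 0.46, 0.27 and 0.70 in MLP livers and 0.61, 0.84, 0.67 and 0.84 in MLP-F livers, against 1.06, 0.97, 1.09 and 1.18 in C livers. The groups did not overlap, and Ccne2 fell by 0.47 (SE 0.076, adjusted p = 0.0328). Fam111a, a protease that in human cells works at replication forks, had 0.80, 0.52, 0.54 and 0.59 in MLP livers and 0.68, 1.19, 0.73 and 1.11 in MLP-F livers, against 1.21, 1.25, 1.41 and 1.32 in C livers. It fell by 0.53 (SE 0.10, adjusted p = 0.0459), and MLP-F replicates 2 and 4 came close to the lowest C liver without reaching it. The DNA polymerase subunits Pola2 and Pole fell by 0.37 and 0.39 (adjusted p = 0.0494 and 0.0440), and Timeless, of the fork protection complex, by 0.43 (adjusted p = 0.0419). In Pola2, Pole and Timeless alike at least 1 low protein liver overlapped the C range.

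The probes for mitosis and the spindle, 42 in number, gave 0 calls in either direction. Their median difference was -0.26, -0.50 in MLP and -0.064 in MLP-F, and 27 of them had an unadjusted p under 0.05, against 15.5% of all kept probes. In the contrast of MLP with MLP-F, where 3.05% of all kept probes were called lower, 15 of the 42 replication probes and 15 of the 42 mitosis probes were called lower in MLP. Aurkb, the mitotic Aurora B kinase, had 1.63 to 1.88 in MLP and 1.99 to 2.84 in MLP-F livers, against 2.38 to 2.69 in C livers, a difference of -0.34 (SE 0.14, adjusted p = 0.256). Mcm6, a subunit of the replicative helicase, had 3.28 to 3.78 in MLP and 4.20 to 4.85 in MLP-F livers, against 4.31 to 4.79 in C livers, a difference of -0.58 (SE 0.14, adjusted p = 0.0803). Gmnn, the geminin that blocks a second licensing of origins, differed by -0.61 (SE 0.14, adjusted p = 0.0806), and Hat1, which acetylates newly made histones, by -0.65 (SE 0.13, adjusted p = 0.0560). Hat1 was not called although its 8 low protein values, 2.44 to 3.26, all lay below its C values of 3.29 to 3.52. In Aurkb and Mcm6 the MLP-F livers spanned the C range and the MLP livers lay below it. In these bulk samples fewer dividing cells and less RNA per cell cannot be told apart. The summed level of 7 erythroid markers ran from 30.7 to 35.5 in the low protein livers and from 31.6 to 33.5 in C livers. The sum pools markers whose differences had both signs. Hbe1, an embryonic globin, differed from C by 2.44 in MLP and -0.83 in MLP-F, with MLP minus MLP-F called at 3.28 (adjusted p = 0.00116). Alas2, another of these markers, differed by 0.34 and 0.0066, with MLP minus MLP-F called at 0.33 (adjusted p = 0.0164). Ahsp, the chaperone of alpha globin, differed by -0.51 and -0.054, with MLP minus MLP-F called at -0.46 (adjusted p = 0.0268), and Slc4a1, the anion exchanger of red cells, by -0.30 and -0.54. Their part in the replication genes was not tested. Counted over the 12 fits that each left out 1 liver, Rrm2 stayed called in 12, Pcna in 4, Orc6 in 3, Ccne2 in 6 and Fam111a in 2, with a highest adjusted p of 0.110 (Fam111a, without C replicate 3).

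The promoters of the called genes were searched on both strands for TTCCCGC and TTTGGCGC (on the other strand GCGGGAA and GCGCCAAA), which are forms of the E2F motif. Promoters were RefSeq sequences of build GRCr8 from 250 bases before to 50 after the start of each gene. A match was found in 7 of 27 promoters of called lower genes (25.9%) and in 2 of 33 of called higher genes (6.06%), against 679 of 8539 genes with a kept probe (7.95%) and 1554 of 33469 promoters in all (4.64%). The 7 were Cbx3, Lipt2, Nxt1, Pole, Rsrc1, Timeless and Ywhaq. Of the replication and S phase genes described above, Rrm2, Pcna, Orc6, Pola2, Ccne2 and Fam111a were not among them. A match is a description of letters and not a site. Stretches of 60 bases around the match are shown for Pole and Timeless, which act at the fork, and for Nxt1 and Cbx3, a nuclear export cofactor and a heterochromatin protein that were called lower, with the motif in capitals. The stretches are chr12:52053643-52053702, minus strand for Pole, chr7:1239410-1239469, plus strand for Timeless, chr3:156562027-156562086, plus strand for Nxt1 and chr4:81876429-81876488, plus strand for Cbx3, each written 5′ to 3′ along the gene.
Pole: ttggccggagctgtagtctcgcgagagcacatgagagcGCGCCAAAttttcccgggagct
Timeless: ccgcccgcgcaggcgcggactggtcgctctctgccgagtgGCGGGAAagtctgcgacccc
Nxt1: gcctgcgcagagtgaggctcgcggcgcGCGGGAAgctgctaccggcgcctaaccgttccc
Cbx3: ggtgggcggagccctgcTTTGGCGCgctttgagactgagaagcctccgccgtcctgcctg
In Pole and Timeless the motif stood at the gene start, in Nxt1 it began 67 and in Cbx3 233 bases before it. Nxt1 had 2.87, 2.65, 2.59 and 2.84 in MLP livers and 2.80, 2.81, 2.63 and 3.16 in MLP-F livers, against 3.34, 3.26, 3.33 and 3.34 in C livers. All 8 low protein livers were below the C livers, and Nxt1 fell by 0.52 (SE 0.087, adjusted p = 0.0356). Cbx3 fell by 0.44 (SE 0.059, adjusted p = 0.0164), likewise with no overlap. In the 12 fits that each left out 1 liver, calls were kept as follows, Nxt1 in 4 and Cbx3 in 10, with a highest adjusted p of 0.0922 (Nxt1, without C replicate 4).

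Genes of fuel metabolism were among the rises, and the 3 probes called higher at an adjusted p under 0.01 were those of Pfkfb1, Acad10 and Pex16. Pfkfb1, the liver form of the enzyme that makes and breaks the fructose bisphosphate signal between glycolysis and glucose output, had 4.23, 4.11, 4.13 and 4.35 in MLP livers and 3.81, 3.39, 4.10 and 3.71 in MLP-F livers, against 3.09, 2.86, 2.92 and 2.77 in C livers. Every low protein liver was above every C liver, and the mean was 3.98 ± 0.32 over both low protein groups (SD, n = 8), against 2.91 ± 0.13 in C (n = 4). Pfkfb1 rose by 1.07 (SE 0.11, adjusted p = 0.00560). The difference was 1.29 in MLP and 0.84 in MLP-F, and that between MLP and MLP-F was not called, at 0.45 (95% interval 0.17 to 0.73, adjusted p = 0.0591). Acad10, a member of the acyl-CoA dehydrogenase family, had 2.51, 2.52, 2.70 and 2.70 in MLP livers and 2.23, 2.45, 2.63 and 2.81 in MLP-F livers, against 1.49, 1.93, 1.67 and 1.45 in C livers. The MLP livers lay within the MLP-F range, all low protein livers lay above all C livers, and Acad10 rose by 0.93 (SE 0.11, adjusted p = 0.00943). Its difference from C was 0.97 in MLP and 0.89 in MLP-F, and MLP minus MLP-F was 0.079 (95% interval -0.21 to 0.36, adjusted p = 0.832). Prodh2, the hydroxyproline dehydrogenase, had 4.74, 4.85, 4.70 and 4.71 in MLP livers and 4.99, 4.47, 4.88 and 4.29 in MLP-F livers, against 4.14, 4.15, 3.90 and 3.97 in C livers. It rose by 0.66 (SE 0.12, adjusted p = 0.0386) with no overlap, and the MLP-F livers were spread more widely than the MLP livers. Fitm2, which is needed to form lipid droplets, had 3.64, 3.65, 3.80 and 3.45 in MLP livers and 3.27, 3.18, 3.43 and 3.15 in MLP-F livers, against 2.74, 3.07, 2.63 and 2.70 in C livers. Here the MLP livers lay highest, the MLP-F livers between and the C livers lowest, and the rise was 0.66 (SE 0.090, adjusted p = 0.0181).

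Most other genes of the same pathways were not called, and the shares called higher in their lists stand against 0.273% of all kept probes. Of 31 probes of glycolysis and glucose output Pfkfb1 alone was called (3.23%, median difference -0.019), of 39 of fatty acid oxidation Acad10 alone (2.56%, median 0.026), and of 38 of amino acid catabolism and the urea cycle Prodh2 alone (2.63%, median 0.15). The lists of fatty acid and triglyceride synthesis (25 probes), of cholesterol synthesis and uptake (19) and of oxidative phosphorylation (51) had 0 called probes. They had 12, 4 and 11 probes at an unadjusted p under 0.05, in each list a larger share than the 15.5% of all kept probes. Among named genes of this kind Pfkfb1 and Acad10 stayed called in all 12 fits that left out 1 liver, and the others as follows, Prodh2 in 3 and Fitm2 in 9, with a highest adjusted p of 0.0999 (Prodh2, without C replicate 4).

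Peroxisomes, which shorten very long fatty acids and finish bile acids, had 2 of 17 biogenesis probes called higher and 0 lower (11.8%, against 0.273% called higher among all kept probes), with a median difference of 0.076. Pex19, the carrier of peroxisomal membrane proteins, had 1.49, 1.69, 1.74 and 1.35 in MLP livers and 1.74, 1.45, 1.57 and 1.35 in MLP-F livers, against 0.77, 1.04, 1.06 and 0.92 in C livers. MLP minus MLP-F was 0.039 (95% interval -0.19 to 0.27, adjusted p = 0.912), and Pex19 rose by 0.60 (SE 0.091, adjusted p = 0.0244) with no overlap. Pex16, which works with Pex19 in membrane assembly, had 3.52, 3.41, 3.48 and 3.70 in MLP livers and 2.66, 2.56, 2.90 and 2.73 in MLP-F livers, against 2.25, 2.38, 2.55 and 2.62 in C livers. The rise of 0.67 (SE 0.083, adjusted p = 0.00943) came mainly from MLP, since the difference was 1.08 in MLP and 0.26 in MLP-F, and MLP minus MLP-F was called at 0.82 (95% interval 0.61 to 1.03, adjusted p = 0.00103). A pair of enzymes inside the peroxisome, picked out after their values were seen, went the other way. Hao1, the hydroxyacid oxidase of liver peroxisomes, had 2.09, 1.74, 1.27 and 1.23 in MLP livers and 2.54, 3.18, 2.34 and 2.61 in MLP-F livers, against 3.38, 3.25, 3.01 and 3.01 in C livers, and it fell by 1.04 (SE 0.18, adjusted p = 0.0386). Crot, the peroxisomal carnitine octanoyltransferase, fell by 0.74 (SE 0.12, adjusted p = 0.0322). In Hao1 and Crot the MLP mean lay below the MLP-F mean, with MLP minus MLP-F at -1.08 and -0.52 (adjusted p = 0.0127 and 0.0424). Calls were kept over the 12 fits without 1 liver as follows, Pex16 in 12, Pex19 in 7, Hao1 in 2 and Crot in 4, with a highest adjusted p of 0.0922 (Hao1, without C replicate 4).

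Genes of sterol and glucocorticoid handling were also called. Cyp27a1, the sterol hydroxylase of bile acid synthesis, had 4.98, 4.99, 5.18 and 5.12 in MLP livers and 4.84, 4.62, 5.23 and 4.84 in MLP-F livers, against 4.28, 4.51, 4.34 and 4.61 in C livers. All low protein values exceeded all C values, by a narrow gap between MLP-F replicate 2 and C replicate 4, and the rise was 0.54 (SE 0.10, adjusted p = 0.0475). Abcg5, a subunit of the exporter of sterols into bile, had 1.62, 1.19, 1.78 and 1.55 in MLP livers and 0.88, 0.78, 0.81 and 0.77 in MLP-F livers, against 0.73, 0.58, 0.46 and 0.78 in C livers. It rose by 0.53 (SE 0.10, adjusted p = 0.0394), but MLP-F replicates 2 and 4 lay within the C range and the difference was 0.89 in MLP and 0.17 in MLP-F. Of 17 probes of bile acid synthesis and transport these 2 were called higher and 0 lower (11.8%, against 0.273% called higher among all kept probes), and the list's median difference was 0.29, at 0.29 in MLP and 0.23 in MLP-F. Hsd11b1, which regenerates active glucocorticoid from its inert form, had 5.20, 5.17, 4.94 and 5.07 in MLP livers and 5.10, 5.57, 5.46 and 5.07 in MLP-F livers, against 5.75, 6.0, 6.11 and 5.82 in C livers. No low protein liver reached the lowest C liver, and Hsd11b1 fell by 0.72 (SE 0.10, adjusted p = 0.0189). Its difference between MLP and MLP-F was not called, at -0.20 (95% interval -0.47 to 0.065, adjusted p = 0.426). Fkbp5, a co-chaperone of the glucocorticoid receptor that the receptor itself induces, had 4.51, 4.87, 4.47 and 4.31 in MLP livers and 3.85, 3.97, 4.04 and 3.89 in MLP-F livers, against 3.63, 3.91, 3.65 and 3.68 in C livers. Fkbp5 rose by 0.52 (SE 0.093, adjusted p = 0.0388), with 0.82 in MLP and 0.22 in MLP-F, and the MLP-F livers overlapped C replicate 2. Hsd11b1 and Fkbp5 were the called members of 13 probes of glucocorticoid response (15.4%, 1 higher and 1 lower, against 0.527% called among all kept probes). Sult1a1, a phenol sulphotransferase of drug metabolism, was the only called probe of 44 of xenobiotic metabolism (2.27%, against 0.273% called higher among all kept probes), at 4.99 to 5.60 in MLP and 3.99 to 5.0 in MLP-F livers, against 3.57 to 4.05 in C livers, a rise of 1.03 (SE 0.19, adjusted p = 0.0465). Over the 12 fits that left out 1 liver these genes stayed called in different numbers, Cyp27a1 in 2, Abcg5 in 2, Hsd11b1 in 9, Fkbp5 in 4 and Sult1a1 in 3, with a highest adjusted p of 0.110 (Cyp27a1, without C replicate 3).

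**Figure D2:**
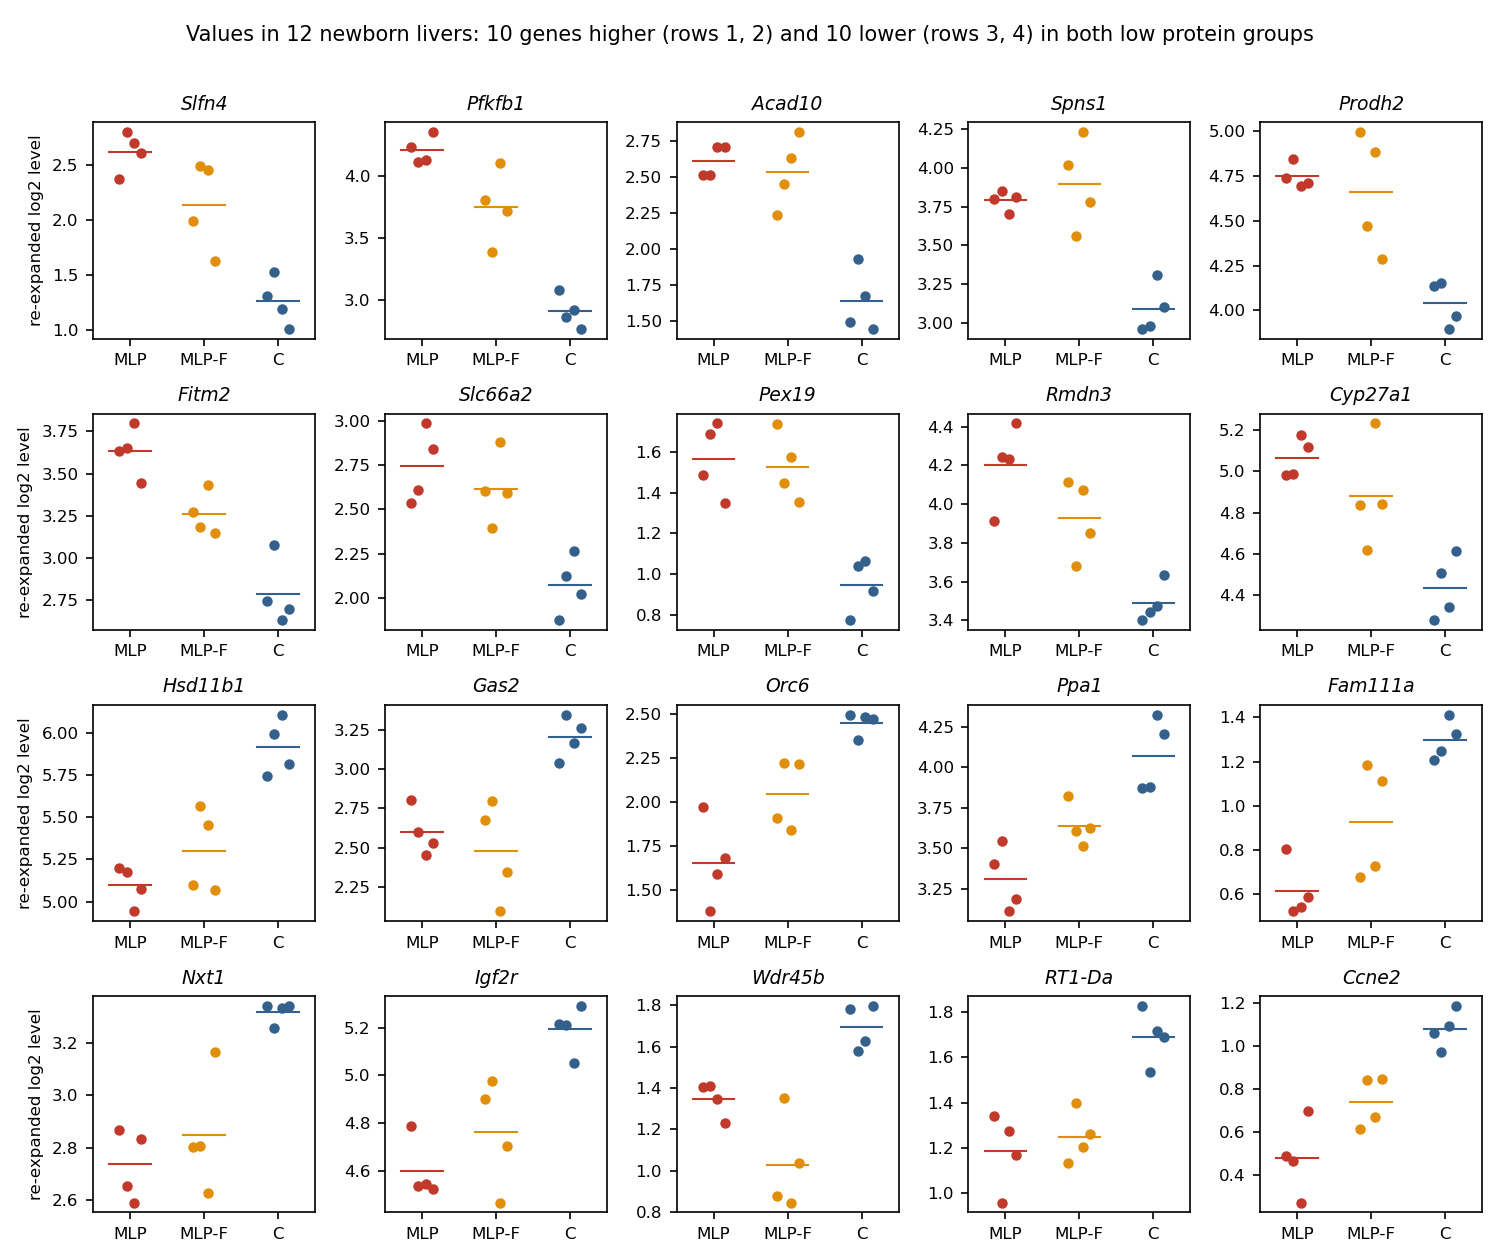
Re-expanded log2 level (vertical axes, each with its own range that does not start at 0) of the 10 largest rises (rows 1 and 2) and 10 largest falls (rows 3 and 4) without overlap between groups and with no called difference between MLP and MLP-F; points are livers and lines are group means of 4. The rises run from 1.12 in Slfn4 to 0.54 in Cyp27a1 and the falls from -0.72 in Hsd11b1 to -0.47 in Ccne2.

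Genes of DNA methylation and of growth signalling were looked at because folate and growth restriction bear on them. Dnmt3a, a methyltransferase that sets new methyl marks, had 3.66, 3.67, 3.46 and 3.66 in MLP livers and 3.56, 3.41, 3.34 and 3.04 in MLP-F livers, against 2.34, 2.86, 3.04 and 2.62 in C livers. It rose by 0.76 (SE 0.12, adjusted p = 0.0328), with MLP-F replicate 4 level with C replicate 3 and the other low protein livers above all C livers. Its difference was 0.90 in MLP and 0.62 in MLP-F, and that between MLP and MLP-F was not called, at 0.28 (95% interval -0.036 to 0.59, adjusted p = 0.330). Dnmt3b, the other de novo methyltransferase, had 2.92 to 3.28 in MLP and 2.14 to 2.76 in MLP-F livers, against 1.94 to 2.56 in C livers, a difference of 0.50 (SE 0.14, adjusted p = 0.119). Dnmt1, which copies marks after replication, had 2.42 to 2.67 in MLP and 2.94 to 3.45 in MLP-F livers, against 3.09 to 3.53 in C livers, a difference of -0.37 (SE 0.11, adjusted p = 0.123). In Dnmt3b and Dnmt1 the MLP livers stood clear of C while MLP-F livers overlapped it. Gnmt, which uses up methyl groups by methylating glycine, differed by 0.66 (SE 0.23, adjusted p = 0.193), with 1.31 in MLP and 0.012 in MLP-F. The 8 probes of DNA methylation gave 1 call, Dnmt3a (12.5%, against 0.527% of all kept probes), and the 29 of the methionine and folate cycle gave 0. Of these 29, 10 had an unadjusted p under 0.05, a larger share than the 15.5% of all kept probes, and the median difference of the list was 0.048. Because the study picked Dnmt1, Dnmt3a, Dnmt3b, Gnmt, Aurkb, Mcm6, Hat1 and Gmnn from these animals, those 8 genes are not independent evidence.

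Igf2r, the receptor that clears insulin-like growth factor 2 and carries enzymes to lysosomes, was the called member of 29 probes of growth signalling (3.45%, against 0.254% called lower among all kept probes). Its levels were 4.79, 4.53, 4.54 and 4.52 in MLP livers and 4.90, 4.98, 4.47 and 4.70 in MLP-F livers, against 5.22, 5.21, 5.05 and 5.29 in C livers. The low protein livers all lay below the C livers, and Igf2r fell by 0.51 (SE 0.092, adjusted p = 0.0394), with -0.60 in MLP and -0.43 in MLP-F. Gas2, a protein of growth-arrested cells that binds the cytoskeleton, had 2.81, 2.60, 2.45 and 2.53 in MLP livers and 2.67, 2.80, 2.09 and 2.35 in MLP-F livers, against 3.04, 3.35, 3.17 and 3.27 in C livers. Gas2 fell by 0.67 (SE 0.12, adjusted p = 0.0413), with -0.61 in MLP and -0.73 in MLP-F and no overlap. Leaving out 1 liver at a time, these calls were kept in the following numbers of the 12 fits, Dnmt3a in 6, Igf2r in 4 and Gas2 in 2, with a highest adjusted p of 0.102 (Igf2r, without C replicate 4).

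Several called genes act on membranes, lysosomes and transport. Spns1, which exports lysophospholipids from lysosomes, had 3.80, 3.85, 3.70 and 3.81 in MLP livers and 4.02, 3.56, 4.23 and 3.78 in MLP-F livers, against 2.96, 2.98, 3.31 and 3.10 in C livers. Spns1 rose by 0.76 (SE 0.11, adjusted p = 0.0189), with 0.70 in MLP and 0.81 in MLP-F and no overlap. Wdr45b, which takes part in building autophagosomes, had 1.40, 1.41, 1.35 and 1.23 in MLP livers and 0.88, 1.35, 0.85 and 1.04 in MLP-F livers, against 1.78, 1.58, 1.63 and 1.80 in C livers. It fell by 0.51 (SE 0.088, adjusted p = 0.0386), with no overlap and the lower mean in MLP-F. These 2 genes were the called ones of 35 autophagy and lysosome probes (5.71%, against 0.527% of all kept probes), whose median difference was 0.041. Nsf, the ATPase that recycles the SNARE proteins of membrane fusion, had 1.35, 0.89, 1.18 and 1.18 in MLP livers and 0.51, 0.95, 0.52 and 0.76 in MLP-F livers, against 1.56, 1.54, 1.55 and 1.63 in C livers. The low protein livers all lay below the C livers with MLP-F lowest on average, Nsf fell by 0.65 (SE 0.093, adjusted p = 0.0189), and MLP minus MLP-F was 0.46 (95% interval 0.23 to 0.70, adjusted p = 0.0275). Nsf was the only called probe of 46 of membrane fusion and endosome traffic (2.17%, against 0.254% called lower among all kept probes). Rnasek, a ribonuclease that also associates with the vacuolar proton pump, had 4.60, 4.66, 4.68 and 4.60 in MLP livers and 4.40, 4.63, 4.37 and 4.40 in MLP-F livers, against 4.89, 5.04, 5.01 and 5.0 in C livers. All 8 low protein livers lay below the C livers by a small margin, and Rnasek fell by 0.45 (SE 0.052, adjusted p = 0.00850). Rmdn3, a tether between mitochondria and the endoplasmic reticulum, had 3.91, 4.24, 4.23 and 4.42 in MLP livers and 4.12, 3.68, 4.07 and 3.85 in MLP-F livers, against 3.40, 3.44, 3.48 and 3.64 in C livers, and it rose by 0.58 (SE 0.10, adjusted p = 0.0386). Slc66a2, a member of a family of membrane transporters, had 2.53, 2.61, 2.99 and 2.84 in MLP livers and 2.60, 2.40, 2.88 and 2.59 in MLP-F livers, against 1.88, 2.13, 2.26 and 2.02 in C livers. Slc66a2 rose by 0.61 (SE 0.11, adjusted p = 0.0386), again without overlap. Rnasek kept its call in all 12 fits without 1 liver, and the other genes as follows, Spns1 in 9, Wdr45b in 3, Nsf in 8, Rmdn3 in 3 and Slc66a2 in 3, with a highest adjusted p of 0.0990 (Wdr45b, without C replicate 4).

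Among the remaining named genes, Slfn4, of the Schlafen family of immune and growth regulators, rose most of the genes that did not overlap. Its levels were 2.37, 2.80, 2.69 and 2.60 in MLP livers and 1.99, 2.49, 2.45 and 1.62 in MLP-F livers, against 1.31, 1.53, 1.19 and 1.01 in C livers. The rise was 1.12 (SE 0.16, adjusted p = 0.0189), with 1.36 in MLP and 0.88 in MLP-F. RT1-Da, an alpha chain of the rat class II histocompatibility molecules, had 1.34, 0.96, 1.28 and 1.17 in MLP livers and 1.13, 1.40, 1.20 and 1.26 in MLP-F livers, against 1.83, 1.53, 1.72 and 1.69 in C livers. RT1-Da fell by 0.48 (SE 0.078, adjusted p = 0.0328), without overlap, and MLP minus MLP-F was -0.063 (95% interval -0.26 to 0.13, adjusted p = 0.803). The summed level of 6 macrophage markers was 12.4 to 16.2 in the low protein livers and 12.4 to 13.3 in C livers, and its part in RT1-Da was not tested. Ppa1, the cytosolic pyrophosphatase, had 3.40, 3.55, 3.11 and 3.19 in MLP livers and 3.82, 3.61, 3.51 and 3.62 in MLP-F livers, against 3.87, 3.88, 4.32 and 4.21 in C livers. It fell by 0.59 (SE 0.11, adjusted p = 0.0394), with no overlap and the lower mean in MLP. Hnrnpl, a splicing regulator and the only called one of 38 such probes (2.63%, against 0.273% of all kept probes), had 3.19, 3.23, 3.17 and 3.23 in MLP livers and 3.67, 3.53, 3.80 and 4.02 in MLP-F livers, against 2.56, 3.27, 2.68 and 2.54 in C livers. Hnrnpl rose by 0.72 (SE 0.13, adjusted p = 0.0394), although C replicate 2 lay above the 4 MLP livers and the other 3 C livers below them. The calls were kept in the following numbers of the 12 fits without 1 liver, Slfn4 in 8, RT1-Da in 7, Ppa1 in 3 and Hnrnpl in 3, with a highest adjusted p of 0.103 (Ppa1, without C replicate 4).

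A call in this contrast did not require that both diets differ from C. Of the 83 called probes 35 (42.2%) were also called between MLP and MLP-F, where 1037 probes (6.58%) were called over all kept probes. MLP lay further from C than MLP-F in 30 of the 35 and MLP-F further in 5, which were Nsf, Btg1, Lipt2, Tm7sf3 and a probe without a symbol. In 6 called probes the means of MLP and MLP-F lay on opposite sides of the C mean. Among these were 2 probes without a symbol. Probe ILMN_1349205 had 0.27, 0.22, 0.35 and 0.47 in MLP livers and 3.93, 4.30, 3.90 and 3.84 in MLP-F livers, against 3.59, 3.40, 3.37 and 3.62 in C livers. MLP livers lay far below and MLP-F livers above the C livers, with -3.17 in MLP and 0.50 in MLP-F, yet the contrast gave a fall of 1.33 (SE 0.088, adjusted p = 0.000121), the smallest p of all. Probe ILMN_1650062 had 2.61, 2.45, 2.67 and 2.83 in MLP livers and 5.14, 5.06, 5.04 and 5.19 in MLP-F livers, against 4.51, 4.32, 4.57 and 4.51 in C livers, with -1.84 in MLP and 0.63 in MLP-F and a fall of 0.60 (SE 0.068, adjusted p = 0.00768). Mmadhc, which takes part in the handling of cobalamin, had 1.72, 1.49, 1.56 and 1.85 in MLP livers and 3.59, 4.48, 4.13 and 4.67 in MLP-F livers, against 4.56, 4.45, 4.43 and 4.43 in C livers. It fell by 1.53 (SE 0.16, adjusted p = 0.00560), the largest size of any called probe, while MLP-F alone differed from C by -0.25 (adjusted p = 0.587). For these 3 the contrast reports a mean of unlike groups.

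The other called genes with a symbol and the smallest p between MLP and MLP-F were of the same kind as Mmadhc, apart from direction. Smim3, a small membrane protein, had 2.65 to 2.80 in MLP and 1.54 to 1.92 in MLP-F livers, against 1.80 to 1.89 in C livers. Serpina12, the secreted serpin vaspin, had 1.04 to 1.54 in MLP and 0.30 to 0.46 in MLP-F livers, against 0.34 to 0.50 in C livers. Il1r2, the decoy receptor of interleukin 1, had 1.45 to 1.82 in MLP and 0.62 to 0.90 in MLP-F livers, against 0.62 to 0.92 in C livers. In all of these MLP stood above both other groups, whose ranges overlapped. Tsku, a protein secreted by liver, had 1.59 to 2.30 in MLP and 0.55 to 0.92 in MLP-F livers, against 0.51 to 0.74 in C livers, with 1.48 in MLP and 0.13 in MLP-F. The differences of MLP-F from C were -0.10 in Smim3, -0.026 in Serpina12 and -0.023 in Il1r2 (adjusted p = 0.611, 0.936 and 0.936). Mmadhc and both probes without a symbol were called in all 12 fits that left out 1 liver, and the others as follows, Smim3 in 4, Serpina12 in 3, Il1r2 in 2 and Tsku in 6, with a highest adjusted p of 0.101 (Il1r2, without C replicate 1). When called probes were limited to those without overlap of 8 against 4 and with no called difference between MLP and MLP-F, 42 were left, 21 higher and 21 lower.

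**Figure D3:**
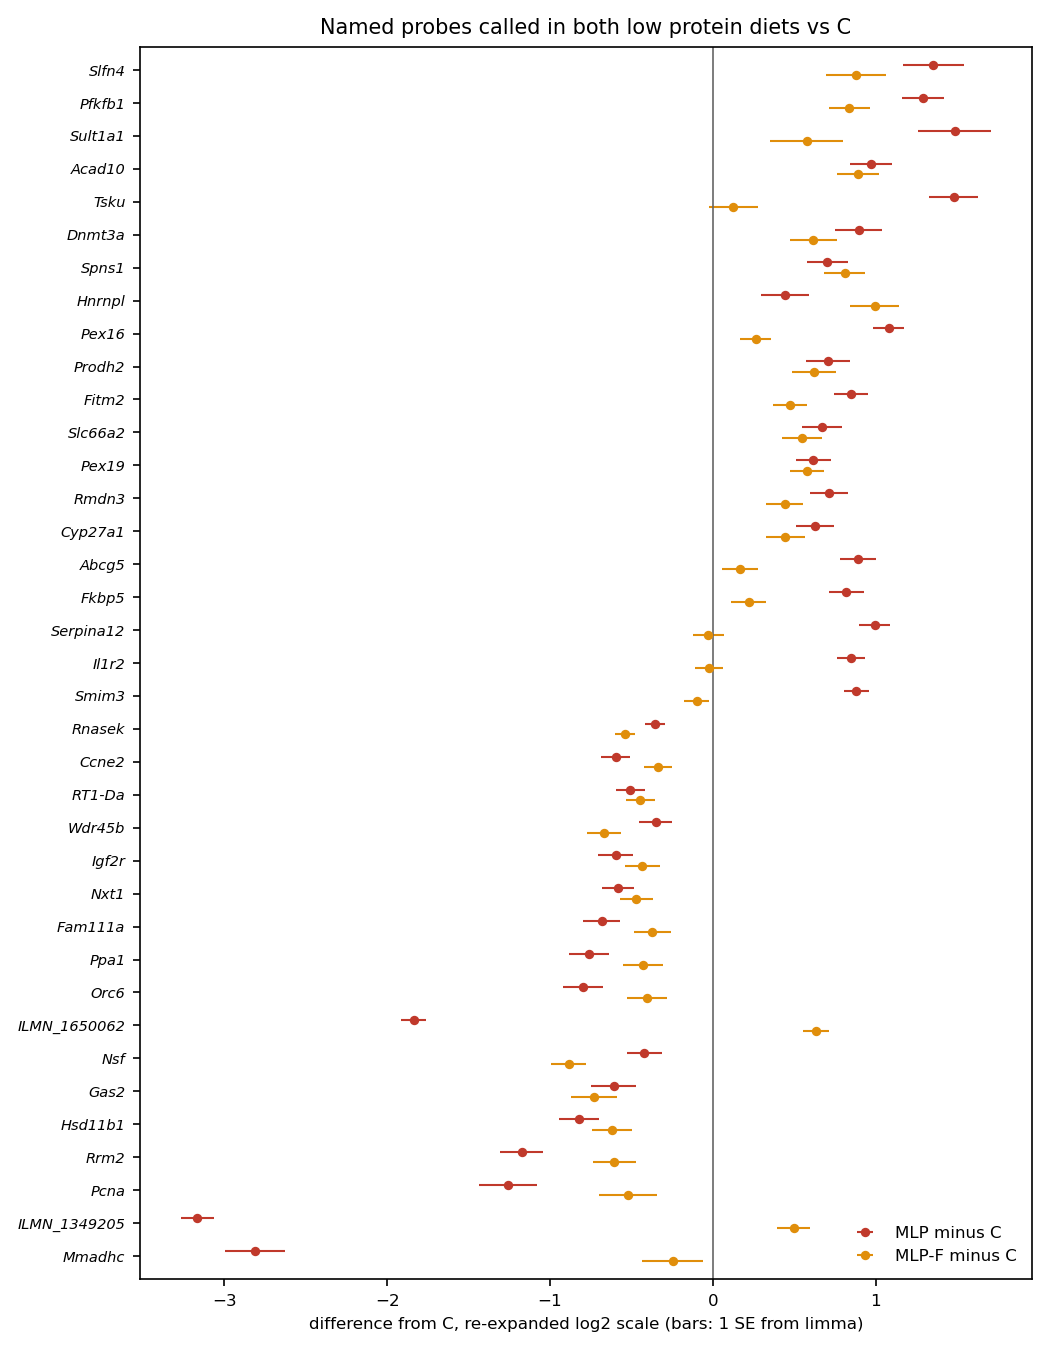
Difference from C (horizontal axis, re-expanded log2 scale, bars 1 SE from limma) of MLP and of MLP-F for the 37 named probes that were called, ordered by their mean difference. Both diets share the 4 C livers. In Acad10 the points nearly coincide (0.97 and 0.89), whereas for ILMN_1349205 they lie on opposite sides of 0 (-3.17 and 0.50).

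Each diet on its own gave other counts against the same 4 C livers. MLP had 685 called probes (4.35%), 358 higher (2.27%) and 327 lower (2.08%). MLP-F had 76 (0.482%), 30 higher (0.19%) and 46 lower (0.292%). As both comparisons share their C samples, no overlap between them is read. In the contrast of both diets with C, 7 further gene lists had 0 called probes. In each of them the share of probes at an unadjusted p under 0.05 was above the 15.5% of all kept probes. The lists, with these counts, were those of the amino acid shortage and stress response (5 of 27 probes), retinoid binding and oxidation (6 of 26), the interferon response (5 of 23), complement and coagulation (9 of 36), the acute phase (6 of 20), cytosolic ribosomal proteins (17 of 57) and hepatocyte transcription factors (4 of 22).

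The count depended on single livers more than the differences did. Without MLP-F replicate 2 limma called 694 probes (4.41%), 326 higher and 368 lower, among them all 83. The differences of the 83, which had been chosen in the fit with all 12 livers, were 0.941 to 1.12 times those with all 12 livers. MLP-F replicate 2 was the only low protein liver whose nearest liver by correlation was a C liver. Leaving it out takes away a liver that resembled C, so the list shares in this fit are not independent support. In the fit without that liver 12 of 42 replication probes were called lower (28.6%, against 2.34% of all kept probes), Mcm2, Mcm7, Cdc6, Gmnn, Rfc2, Rfc5 and Rpa3 having joined the 5 above. The mitosis list then had 7 of 42 called lower (16.7%), which were Ccna2, Cdk1, Ect2, Smc2, Spc25, Ttk and Ube2c. With all livers MLP minus MLP-F was called in Mcm2, Mcm7, Cdc6, Gmnn, Rfc2, Ccna2, Cdk1, Spc25 and Ttk. It was not called in Rfc5, Rpa3, Ect2, Smc2 and Ube2c. The differences of MLP and MLP-F from C were -0.99 and 0.11 in Rfc2, -1.20 and -0.34 in Cdk1, and -0.58 and -0.52 in Ube2c. Of 14 clock probes 4 were called higher (28.6%, against 2.07%), namely Cry1, Per1, Per2 and Usp2, where all 12 livers gave 0. Per1, Per2 and Cry1 are repressors of the clock, and these calls are of the mean of both diets. With all livers the differences of MLP and MLP-F from C were 1.33 and -0.19 in Per1, 1.37 and 0.52 in Per2, 0.77 and 0.23 in Cry1, and 1.57 and 0.26 in Usp2. MLP minus MLP-F was called in Per1, Cry1 and Usp2 (adjusted p = 0.000535, 0.0385 and 0.00864), and it was 0.85 in Per2 (adjusted p = 0.0609). Fatty acid oxidation had 6 called higher and 1 lower of 39, and the bile acid list 4 called higher of 17, against 2.07% higher and 2.34% lower of all kept probes. Among these, MLP minus MLP-F was called with all livers in Decr2, Abcc3 and Abcg5. It was not called in Acaa1a, Acad9, Acad10, Cpt2, Slc25a20, Scp2, Cyp27a1 and Slc27a5. The differences of MLP and MLP-F from C were 0.54 and -0.045 in Decr2, 1.19 and 0.27 in Abcc3, and 1.02 and 0.88 in Slc27a5. Of the 694 probes 196 (28.2%) were also called between MLP and MLP-F in the fit without MLP-F replicate 2, against 8.60% of all kept probes.

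**Figure D4:**
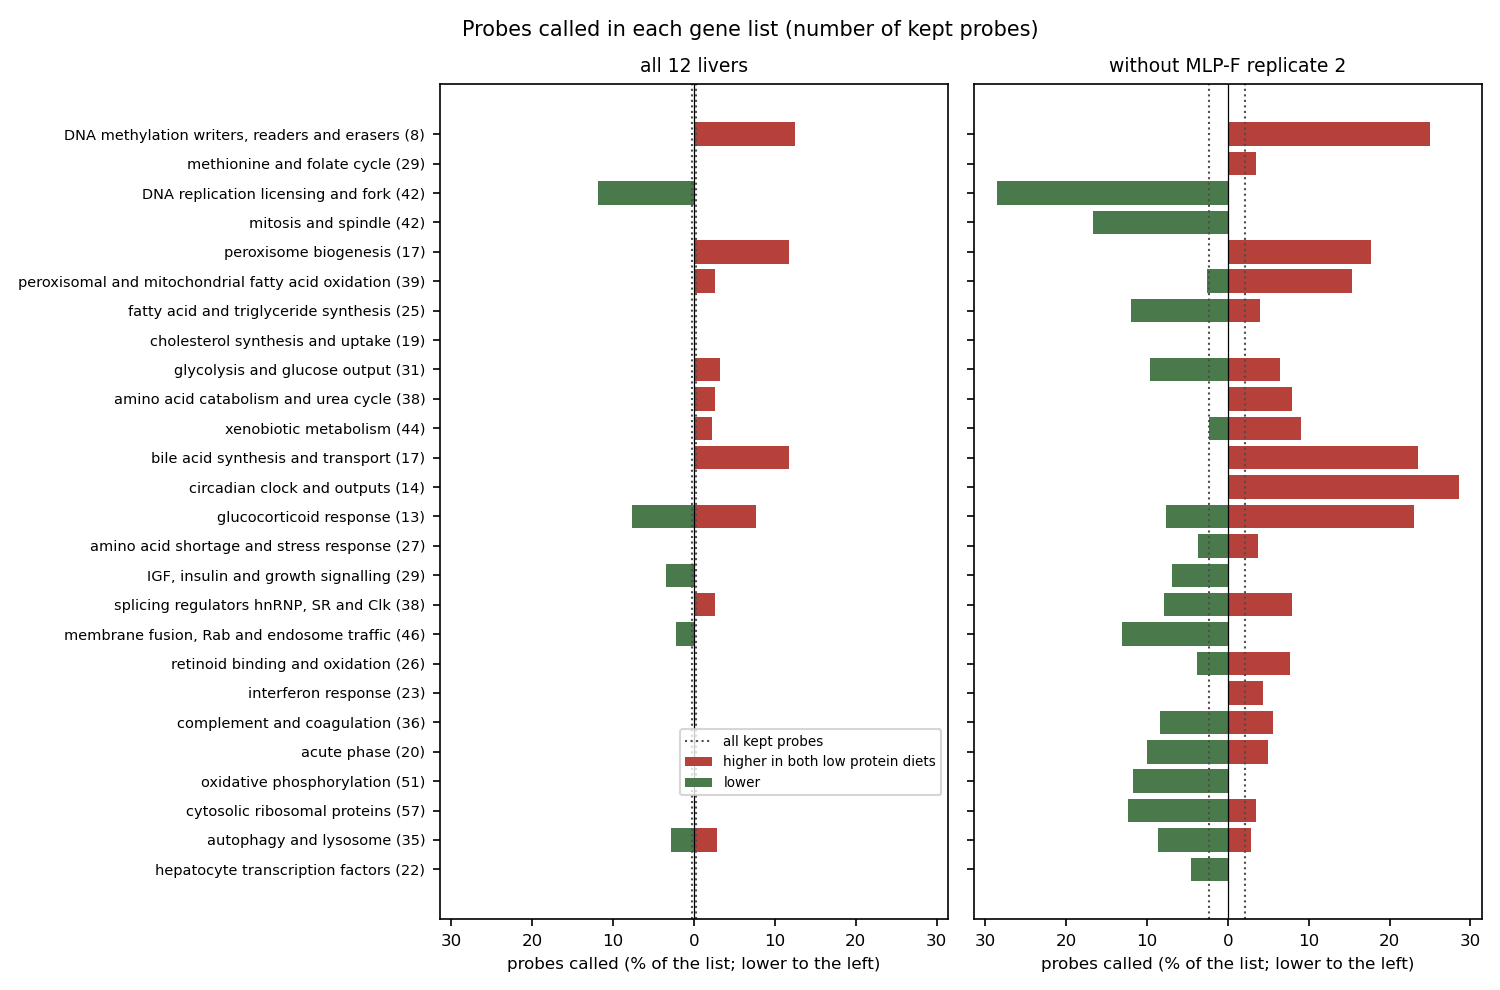
Share of the kept probes of each gene list (number of probes in parentheses) called higher (right of 0) or lower (left of 0) in both low protein diets, with all 12 livers and without MLP-F replicate 2; dotted lines are the shares over all kept probes. DNA replication has 11.9% called lower with all livers and 28.6% without that liver.

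Without C replicates 1 and 4, the C livers with foreign transcripts, limma called 1 probe (0.00635%), ILMN_1349205, and 1476 had an unadjusted p under 0.05. All 83 probes kept an unadjusted p under 0.05 in that fit, and their differences were 0.692 to 1.28 times the ones with all livers, with a median of 0.958. As the 83 were chosen by their p with all livers, and this fit reuses the remaining ones, neither value is independent of that choice. The fit has 2 C livers in place of 4. Taking out C replicates 2 and 3 in their place, a setting added after the data were seen, left 111 called probes (0.705%), 24 higher and 87 lower, of which 23 were among the 83. With C replicates 1 and 4 and MLP-F replicate 2 all left out 31 probes were called, 14 higher and 17 lower, and 11 were among the 83. Leaving out any 1 of the other livers gave 13 to 92 called probes. By C liver left out, the count was 24 for replicate 1, 56 for replicate 2, 19 for replicate 3 and 13 for replicate 4. By MLP liver it was 45, 28, 14 and 35 for replicates 1 to 4, and by MLP-F liver 55, 69 and 92 for replicates 1, 3 and 4. Calls in all 12 such fits were kept by 10 probes, those of Pfkfb1, Acad10, Pex16, Ntpcr, Rrm2, Mmadhc, Prep, Rnasek, ILMN_1349205 and ILMN_1650062.

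**Figure D5:**
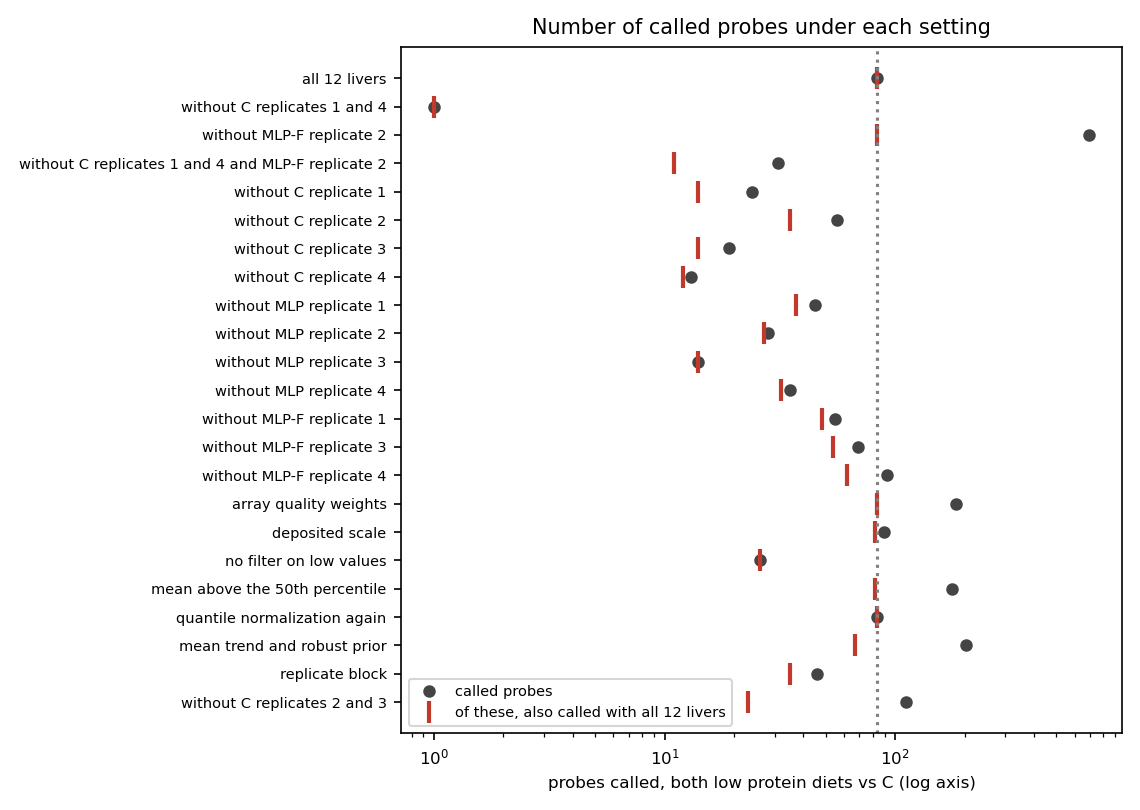
Number of probes called in both low protein diets against C (horizontal log axis) with all 12 livers and under each other setting; dots are called probes, red ticks are those also called with all 12 livers, and the dotted line marks 83. The dots run from 1 without C replicates 1 and 4 to 694 without MLP-F replicate 2.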

How the data were processed

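Liver RNA of 12 newborn rats, 4 each in MLP, MLP-F and C, was hybridised to 1-colour arrays. The authors used beadarray and limma with quantile normalization, as their methods state, and a legend of theirs names a filter on low quality probes. They link a Bioconductor release for both packages, while the package versions, background correction and filter rule are not given in the sources used here. Log2 values of 22505 probes were deposited by the authors. From 2 raised to each value 16 was subtracted, a step inferred from the values. A second deposited table of log2 intensities has 12 columns that no label names, and these were not used.

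Probes with a mean over the 12 samples above the 30th percentile were kept, 15753, of which 10552 had a symbol from the platform annotation (10321 genes). All groups entered 1 linear model in R 4.3.3 with limma 3.58.1 (eBayes moderation, 9 residual and 2.26 prior degrees of freedom), with two-sided tests and Benjamini-Hochberg adjustment over the kept probes. All adjusted p-values are from limma. Intervals are 95% intervals of that fit, not adjusted. The p-values measure the spread among littermates, and the number of arrays limits their precision. On simulated data for this contrast over 15753 probes, 88.1% of 67 probes moved by 0.5 were recovered, and 100% of 67 moved by 1 and of 66 moved by 2. The moved probes were drawn at random from all kept probes, with independent normal noise of 1 SD per probe. Each was moved by the same amount in MLP and MLP-F, whereas 35 of the 83 probes called in the real data differed between these groups. Foreign tissue in single livers was not simulated, so these shares do not show that uncalled genes were unchanged. In the real data Mcm6 (-0.58), Cdk1 (-0.77) and Per2 (0.94) were not called.

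The genes given with full values followed a rule. It held the called probes with a symbol that changed most, 10 in each direction, without overlap of 8 low protein against 4 C values and with no called difference between MLP and MLP-F. It added the 5 smallest p, up to 2 called probes of each of 26 pathway lists, the 8 genes the study measured by qPCR, and the 5 called probes with a symbol and the smallest p between MLP and MLP-F. Genes named outside this rule were chosen after their values were seen. Members and gene lists were chosen with earlier results of these data known. Alternatives tried were leaving out livers, array weights, the deposited scale, other filters, a further quantile normalization, another variance model and the replicate number as a block.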

Additional observations from a re-analysis of the deposited data

Results flagged for a closer look

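In 9 of 132 groups of 4 livers (6.82%) 1 liver of a named gene lay far from the other 3, by the gap divided by the range of the group, where chance gives about 1 in 20 (5%). The liver stood above its group for Igf2r in MLP replicate 1 (4.79, with the other 3 at 4.52 to 4.54), Rnasek in MLP-F replicate 2 (4.63, with the other 3 at 4.37 to 4.40) and Fkbp5 in C replicate 2 (3.91, with the other 3 at 3.63 to 3.68). It stood below its group for Nxt1 in C replicate 2 (3.26, with the other 3 at 3.33 to 3.34), Dnmt3a in MLP replicate 3 (3.46, with the other 3 at 3.66 to 3.67), Pcna in C replicate 2 (5.72, with the other 3 at 6.15 to 6.19), Dnmt3b in MLP replicate 1 (2.92, with the other 3 at 3.24 to 3.28), Serpina12 in MLP replicate 1 (1.04, with the other 3 at 1.46 to 1.54) and Tsku in MLP replicate 4 (1.59, with the other 3 at 2.20 to 2.30). C replicate 2 and MLP replicate 1 account for 3 of the 9 each.

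In 14 named probes the difference of the low protein group from C was not the same in MLP and MLP-F, by limma's test of MLP minus MLP-F on the same scale. MLP was lower than MLP-F by a wide margin in 3 probes, with differences of -3.67 in ILMN_1349205, -2.56 in Mmadhc and -2.47 in ILMN_1650062. MLP was also lower among the replication genes, with -0.57 in Rrm2 and -0.73 in Pcna. MLP was higher than MLP-F among genes that rose, with 0.82 in Pex16, 0.91 in Sult1a1, 0.73 in Abcg5, 0.60 in Fkbp5, 0.98 in Smim3, 1.02 in Serpina12, 0.87 in Il1r2 and 1.35 in Tsku. In Nsf, which fell, MLP was higher by 0.46, so that the fall was larger in MLP-F. The adjusted p of these 14 differences ran from 8.59e-09 to 0.0353. Named genes that were not called against C are left out of the 14. Among them MLP minus MLP-F was called in Mcm6, Dnmt1, Dnmt3b, Aurkb and Gmnn (adjusted p = 0.00782, 0.0122, 0.0223, 0.0235 and 0.0476).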

How the results depend on the processing

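With all 12 livers 83 probes were called in both low protein diets against C. The count was 1 without C replicates 1 and 4, 31 without these and MLP-F replicate 2, 184 with array quality weights, 26 with no filter on low values, 177 with only probes above the 50th percentile and 202 with a mean trend and robust prior. It was 13 to 694 when 1 liver was left out, with the extremes without C replicate 4 and without MLP-F replicate 2. It stayed within 1.5 times of 83 on the deposited scale (89, of which 82 were among the 83) and after another quantile normalization (83, the same probes). In the setting added after the data were seen, without C replicates 2 and 3, it was 111, but only 23 of these were among the 83. Fewer C livers are left in the fits without them, and more probes are tested with no filter. Beyond that the cause was not tested. MLP against MLP-F gave 1037 called probes, and 619 to 1355 when 1 liver was left out. It gave 793 with no filter and 1457 without C replicates 1 and 4 and MLP-F replicate 2, and 1024 to 1210 under the other settings of scale, filter, weights, normalization and variance.

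No named gene changed direction. Of the 37 that were called, 14 stayed called with no filter, 1 without C replicates 1 and 4, and all 37 with array weights, on the deposited scale, without MLP-F replicate 2 and under the 50th percentile. Of the 7 not called, 3 were called without MLP-F replicate 2.

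The replicate numbers do not pair the livers. Over 12 same-numbered pairs the correlation of deviations from the group means ran from -0.217 to 0.143, 1 pair was over 0.1, and 5 of 12 livers correlated best with their own number. With the replicate number as a block 46 probes were called, 35 of them among the 83, and 21 of the 37 named genes stayed called. Between MLP and MLP-F 912 probes were called with the block.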

Other observations

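Some called probes were not described above, and those given here were picked after their values were seen. Ntpcr, a nucleoside triphosphatase, and Prep, a prolyl peptidase that cleaves short peptides, were called in all 12 fits that left out 1 liver. Ntpcr had 1.61, 1.64, 1.66 and 1.77 in MLP livers and 1.14, 1.08, 1.28 and 1.14 in MLP-F livers, against 1.05, 0.81, 0.96 and 1.08 in C livers. Its groups did not overlap, it rose by 0.44 (SE 0.056, adjusted p = 0.0117), and it was also called between MLP and MLP-F, at 0.51 (adjusted p = 0.00174). Prep had 1.79, 1.75, 1.70 and 1.68 in MLP livers and 1.98, 1.90, 1.93 and 1.97 in MLP-F livers, against 2.25, 2.06, 2.33 and 2.23 in C livers. It fell by 0.38 (SE 0.047, adjusted p = 0.00943) with no overlap. Hrk, which promotes cell death by binding Bcl-2 proteins, had 1.41, 1.53, 1.74 and 2.13 in MLP livers and 0.54, 0.31, 0.94 and 0.37 in MLP-F livers, against 0.28, 0.13, 0.22 and 0.26 in C livers. Hrk rose by 0.90 (SE 0.14, adjusted p = 0.0266), with 1.48 in MLP and 0.32 in MLP-F.

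Among called genes that differed from C more in MLP-F than in MLP were Btg1, an antiproliferative factor, with -0.26 in MLP and -0.74 in MLP-F, and Tm7sf3, a membrane protein, with 0.18 in MLP and 0.84 in MLP-F. Btg1 fell by 0.50 (SE 0.089, adjusted p = 0.0394) and Tm7sf3 rose by 0.51 (SE 0.10, adjusted p = 0.0454). In Bccip and Mettl7a another kept probe was not called, with differences of 0.016 in Bccip and 0.12 in Mettl7a, while their called probes had -0.46 and 0.72.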
